A study of Mus musculus with 12 samples.

Results

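IL-4 and IL-13 act on fibroblasts through a small set of receptor chains, kinases and inhibitors, and 9 genes of this set were followed in bulk RNA-seq of 3T3-L1 cells. The 9 genes were chosen by name, for their roles in the pathway, but with earlier results of these data known. They were the receptor chains Il4ra, Il13ra1 and Il2rg, the decoy receptor Il13ra2 and the kinases Jak1 and Tyk2. The others were the transcription factor Stat6 and the feedback inhibitors Socs1 and Cish. All 9 were among the 56941 genes of the count table, and all 9 passed the filter on low counts that left 14810 genes for testing. 3T3-L1 is a wild type mouse embryonic fibroblast line, so all 12 libraries came from 1 cell line in culture, and they share a single batch label. There were 4 conditions with 3 libraries each, all at 24 hours: control (labelled vehicle, and untreated in the library names), IL-4/13 (50 ng/mL of IL-4 plus 50 ng/mL of IL-13), Inf (an inflammatory cocktail that held 20 ng/mL of TNF-α, 50 ng/mL of IL-17A and 0.5 ng/mL of IL-1β), and IL-4/13 + Inf (all 5 cytokines). The study used the cocktail to imitate inflamed skin and asked what IL-4/13 adds to it. Nothing in the labels says that the 3 libraries of a condition came from separate cultures, so the p-values measure only the spread between these libraries, which may be technical.

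IL-4 binds IL-4Rα, which then pairs either with the common γ chain encoded by Il2rg, to form the type I receptor, or with IL-13Rα1, to form the type II receptor. IL-13 binds IL-13Rα1 and uses the type II receptor, which is the form that fibroblasts are known for, while the type I receptor is best known in lymphocytes and myeloid cells. JAK1 is bound by IL-4Rα and TYK2 by IL-13Rα1, and the activated kinases lead to phosphorylation of STAT6, which then enters the nucleus and switches on target genes. IL-13Rα2 binds IL-13 tightly with a short tail that carries no JAK binding site, and is known as a decoy receptor. SOCS1 inhibits JAK kinases directly, and CIS, the product of Cish, is a related inhibitor best known for acting on receptors that signal through STAT5.

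Total counts per library ranged from 13446005 to 20775769. Levels are given as CPM, which are counts normalized to the library size after TMM scaling, with factors between 0.986 and 1.02. Inf replicate 3 stood apart from the other Inf libraries, with a chi-square per gene of 8.58 and 8.21 against replicates 1 and 2, where no other pair within a condition exceeded 4.64. Without it, 7 of the 9 genes were called for Inf against control and 3 for the interaction, as with it, while for IL-4/13 + Inf against Inf the count was 5 in place of 4, because Il4ra passed the threshold at −0.28. Calls of upregulation or downregulation required an adjusted p under 0.05 (Benjamini-Hochberg, edgeR's quasi-likelihood test) together with a log2 fold change of more than 0.25 in size. The fibroblast label was checked against 10 fibroblast markers, all of which passed the filter, with a summed level of 16684 to 19448 CPM in control and 11768 to 12138 CPM with IL-4/13 + Inf. The markers did not all fall. Against control, Inf downregulated 5 and upregulated 3 (Dcn by 4.09, Pdgfra by 0.97 and Pdgfrb by 0.84), beside 15.3% and 16.3% of all tested genes. The combination downregulated 7 and upregulated 1 (Dcn), beside 11.5% and 13.4%. IL-4/13 alone downregulated 4 and upregulated 0 against control, beside 2.57% and 2.78%. Added to Inf, IL-4/13 downregulated 5 and upregulated 0 against Inf, beside 7.00% and 7.55%. The leukocyte markers Ptprc (at most 5 counts in a library), Cd3e (0 counts) and Vav1 (0 counts) were at or near 0, as were the keratinocyte markers Krt5 and Epcam (0 counts) and the adipocyte markers Adipoq and Plin1 (at most 1 count). Of the adipocyte list only Fabp4 passed the filter, at a mean of 11.3, 16.2, 30.1 and 19.4 CPM in control, IL-4/13, Inf and the combination. The summed levels of T and NK cell markers and of endothelial markers were at most 1.20 and 1.58 CPM in a library, and keratinocyte markers, nearly all Krt10, reached 6.18 CPM. Of the endothelial list only Cdh5 passed the filter, with at most 22 counts in a library. Its mean was 0.119, 0.343, 0.851 and 0.572 CPM in the same order of conditions. Cdh5 was upregulated against control by Inf (2.73) and by the combination (2.19). The part of Fabp4, of Cdh5 and of the fibroblast markers in the results that follow was not tested. In bulk RNA, fewer cells that express a gene and less RNA per cell cannot be told apart.

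Against control, IL-4/13 alone upregulated 3 of the 9 genes (Il13ra2, Socs1 and Cish), a share to be read against 2.78% of all tested genes upregulated and 2.57% downregulated. None of the 9 was downregulated by edgeR, by DESeq2 or at an unadjusted p below 0.05 (0 genes each). Inf alone upregulated 7 of the 9, all but Jak1 and Stat6, where 16.3% of tested genes were upregulated and 15.3% downregulated. At an unadjusted p below 0.05, 9 of the 9 were higher with Inf and 0 were lower, and DESeq2 called 7 higher and 0 lower. The shares over all tested genes, here and below, are of edgeR's calls. None was computed at an unadjusted p, so counts at that p have no share to be read against. The combination upregulated 6 of the 9 against control, where the shares over all tested genes were 13.4% and 11.5%. Those 6 were Il4ra, Il13ra1, Il2rg, Il13ra2, Socs1 and Cish, and again 0 were lower by either tool or at an unadjusted p below 0.05. The median log2 fold change of the 9 genes was 0.05 with IL-4/13, 0.72 with Inf and 0.89 with both, while that of all tested genes was 0.00, 0.01 and 0.00 (−0.0014, 0.0073 and −0.00084 before rounding). These 3 comparisons share the control libraries, so their results are not independent of each other.

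**Figure D1:**
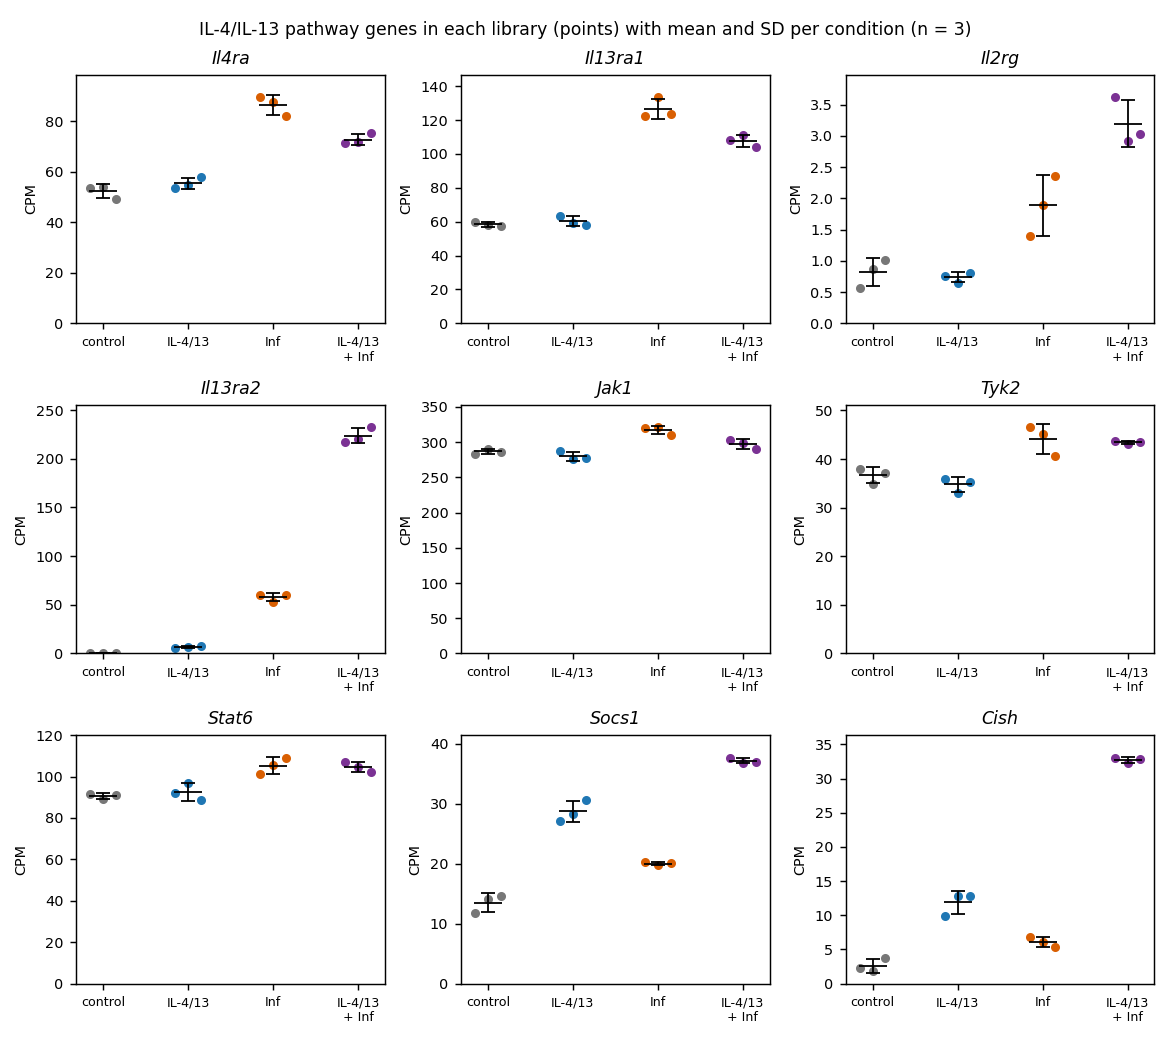
Level of each of the 9 genes in CPM (vertical axis, starting at 0) in the 4 conditions (horizontal axis). Points are single libraries, and the bar with caps is the mean ± SD of 3 libraries. Il13ra2 runs from a mean of 0.380 CPM in control to 224 CPM with IL-4/13 + Inf, whereas Jak1 stays between 275 and 321 CPM in all 12 libraries.

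Il4ra and Il13ra1, the chains of the type II receptor, responded to Inf and not detectably to IL-4/13 alone. Il4ra (ENSMUSG00000030748, GRCm38 chr7:125552120-125579474, plus strand) was at 53.8, 54.1 and 49.3 CPM in the control libraries and at 53.6, 54.9 and 57.8 CPM with IL-4/13. It was at 89.6, 87.8 and 82.1 CPM with Inf and at 71.3, 71.8 and 75.3 CPM with IL-4/13 + Inf. The control and IL-4/13 libraries overlapped, all libraries with Inf lay above both, and the libraries with IL-4/13 + Inf lay below those with Inf alone. Inf upregulated Il4ra by 0.72 on the log2 scale (SE 0.057, adjusted p = 7.3e-12), a 1.65-fold rise. For IL-4/13 against control the log2 fold change was 0.08, with a 95% confidence interval from −0.04 to 0.20 (adjusted p = 0.50).

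Il13ra1 (ENSMUSG00000017057, GRCm38 chrX:36112110-36171259, plus strand) had the same order of conditions. Its levels were 59.8, 57.9 and 57.3 CPM in control and 63.5, 59.2 and 58.1 CPM with IL-4/13. With Inf they were 123, 133 and 124 CPM, and with IL-4/13 + Inf they were 108, 111 and 104 CPM. As for Il4ra, control and IL-4/13 overlapped and no library of any other pair of conditions did. Inf raised Il13ra1 by 1.12 on the log2 scale (SE 0.054, adjusted p = 4.2e-17), or 2.17-fold, and the change with IL-4/13 alone was 0.05 (95% confidence interval −0.07 to 0.16).

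On top of Inf, both type II chains were lower by an amount close to the fold threshold. Adding IL-4/13 to Inf changed Il4ra by −0.25 on the log2 scale (SE 0.056, adjusted p = 0.0012) and Il13ra1 by −0.23 (SE 0.051, adjusted p = 0.0011), and neither passed the fold threshold of 0.25 as computed. The Il4ra value, −0.2497 before rounding, passed it in 3 of 7 alternative analyses and in 7 of 12 analyses that each left out 1 library. That of Il13ra1 passed in 1 of 7 and in 2 of 12. Both stayed lower with an adjusted p of at most 0.014 in every one of these analyses. Against control, the combination left Il4ra upregulated by 0.47 (SE 0.058) and Il13ra1 by 0.89 (SE 0.054).

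The third signalling chain, Il2rg (ENSMUSG00000031304, GRCm38 chrX:101264378-101268255, minus strand), encodes the common γ chain of the type I receptor and had low counts. It had between 10 and 73 counts per library. The levels were 0.571, 0.868 and 1.02 CPM in control, 0.750, 0.648 and 0.809 CPM with IL-4/13, 1.40, 1.90 and 2.36 CPM with Inf, and 3.62, 2.92 and 3.04 CPM with IL-4/13 + Inf. Control and IL-4/13 overlapped, and the other conditions did not overlap with each other or with these. Inf upregulated Il2rg by 1.21 on the log2 scale (SE 0.31, adjusted p = 0.0022) and the combination by 1.96 (SE 0.29, adjusted p = 2.3e-06), while the value with IL-4/13 alone was −0.15 (95% confidence interval −0.91 to 0.61).

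Compared with Inf alone, Il2rg was upregulated in the combination (log2 fold change 0.76, SE 0.26, adjusted p = 0.031), but this call was lost in several alternatives. DESeq2 gave an adjusted p of 0.059, and the adjusted p was 0.14 without Inf replicate 1, 0.067 without Inf replicate 2, and 0.15, 0.056 and 0.055 without replicate 1, 2 and 3 of IL-4/13 + Inf. Of the stretches of 50 bases in the longest Il2rg transcript, 42.0% also occur in Gm20489, an annotated read-through gene that covers Il2rg on the same strand and has no row in the count table. How reads in that stretch were counted is not given in the sources used here. Since Il2rg is best known from blood cells, the leukocyte markers were examined beside it. Of 6 general leukocyte markers, 2 passed the filter (Cd53 and Coro1a), and the summed level of the 6 ranged from 1.92 to 2.91 CPM in control, 7.20 to 7.82 CPM with IL-4/13, 1.99 to 3.27 CPM with Inf, and 10.1 to 11.3 CPM with IL-4/13 + Inf. Most of that sum was Cd53, a tetraspanin, at a mean of 1.65, 6.92, 2.04 and 9.93 CPM in the same order, while Ptprc, which encodes CD45, had at most 5 counts in any library. Of 8 macrophage markers, 5 passed the filter, and the 8 had a summed level of 23.5 to 29.0 CPM in control, 26.8 to 29.1 CPM with IL-4/13, 46.3 to 61.8 CPM with Inf, and 45.0 to 50.4 CPM with IL-4/13 + Inf. The macrophage markers Adgre1 and Itgam had at most 1 count in any library, and Cd14, a gene that fibroblasts can also express, made up most of the sum. The other tested macrophage markers did not rise with it. Mertk was lower with Inf (−1.25) and with the combination (−1.90) than in control, and Csf1r was lower with the combination than in control (−0.81). Lyz2 was lower with the combination than with Inf (−0.74), and Cd68 was called in no comparison. Mrc1, a macrophage gene from the list of STAT6 targets below, went the other way. It was higher with Inf (3.51) and with the combination (4.03) than in control. The part of these markers in the Il2rg result was not tested.

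**Figure D2:**
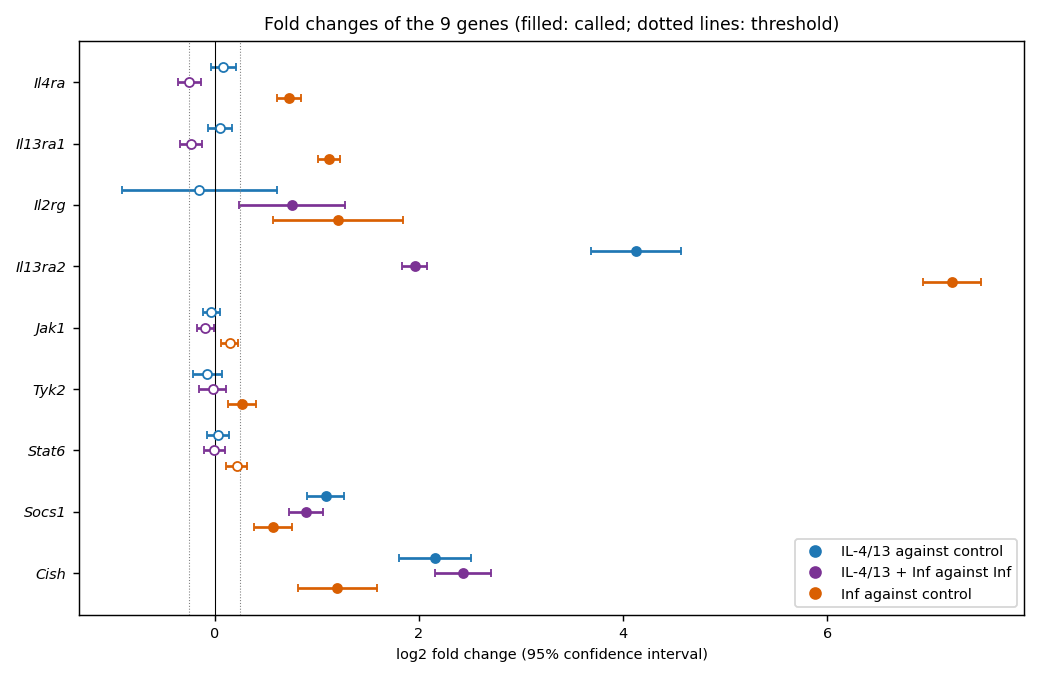
Log2 fold change (horizontal axis) of the 9 genes (vertical axis) for Inf against control and for IL-4/13 on either background (against control, or IL-4/13 + Inf against Inf), with 95% confidence intervals. Filled points were called, open points were not, and dotted lines mark the fold threshold of 0.25 in each direction. IL-4/13 moved Il13ra2, Socs1 and Cish upward both without and with Inf, and the intervals of Jak1, Tyk2 and Stat6 for IL-4/13 stay within 0.25 of 0.

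Il13ra2 (ENSMUSG00000031289, GRCm38 chrX:147383476-147429192, minus strand), the decoy receptor for IL-13, had the widest range of the 9 genes. In control it was barely detected, with 6, 8 and 5 counts, or 0.343, 0.496 and 0.300 CPM. It was at 5.89, 6.80 and 7.64 CPM with IL-4/13, at 59.9, 52.8 and 60.1 CPM with Inf, and at 218, 221 and 232 CPM with IL-4/13 + Inf. No 2 conditions overlapped, and the order was control, IL-4/13, Inf, then the combination. Inf alone upregulated Il13ra2 by 7.22 on the log2 scale (SE 0.14, adjusted p = 3.6e-27), about 149-fold, and the combination by 9.18 (SE 0.12, adjusted p = 1.7e-31), about 580-fold. These folds rest on a control level of 5 to 8 counts per library. Among all 14810 tested genes, ranked by log2 fold change from the highest, Il13ra2 was number 9 with IL-4/13, number 28 with Inf, and number 13 with both. Its control counts were under the filter's minimum of 10, so it passed the filter through its levels in the treated conditions. A rank by fold change favours genes with such a low control level.

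The response of Il13ra2 to IL-4/13 differed in size between the log and the linear scale. On the log2 scale it was larger without Inf (4.12, SE 0.22) than with Inf (1.96, SE 0.060, adjusted p = 1.1e-20), and the difference between the responses, the interaction, was −2.17 (SE 0.26, adjusted p = 2.4e-06). On the CPM scale IL-4/13 added 6.40 CPM without Inf and 166 CPM with Inf. The smallest and largest differences between single libraries were 5.40 and 7.34 CPM without Inf and 158 and 180 CPM with Inf, so the ranges did not overlap. Inf alone added 57.3 CPM, the separate additions sum to 63.7 CPM, and the combination added 223 CPM. The combination was therefore above the sum of the additions and below the product of the folds. The difference on the CPM scale was not tested.

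Per length of transcript, Il13ra2 moved from the lowest of the 9 genes to the highest. To compare genes, CPM were divided by the length of the longest annotated transcript in kilobases (kb). In control the levels per kb were 58.5 for Jak1, 24.03 for Stat6, 15.7 for Il13ra1, 9.97 for Il4ra, 7.59 for Tyk2, 4.65 for Socs1, 0.562 for Cish, 0.491 for Il2rg and 0.166 for Il13ra2. With IL-4/13 + Inf, Il13ra2 reached 98.0 ± 3.39 CPM per kb (SD, n = 3), above Jak1 at 60.6 ± 1.42, Il13ra1 at 29.0 ± 0.950 and Il4ra at 13.9 ± 0.416. The ratio of Il13ra2 to Il13ra1, both per kb, was 0.0106 ± 0.0029 in control, 0.184 ± 0.032 with IL-4/13, 0.744 ± 0.086 with Inf and 3.38 ± 0.22 with the combination (SD, n = 3 each). The ratio ranged from 0.644 to 0.796 with Inf and from 3.23 to 3.63 with the combination, so transcripts of the decoy outnumbered those of the signalling chain, per length, only in the 3 libraries of the combination. Il2rg stood at 0.031, 0.027, 0.033 and 0.066 of Il13ra1 per kb in control, IL-4/13, Inf and the combination. The ratio of Il4ra to Il13ra1 was 0.634 ± 0.026 in control and 0.478 ± 0.029 with the combination (SD, n = 3 each). All of these are RNA levels, and neither surface receptor nor soluble protein was measured in these libraries.

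**Figure D3:**
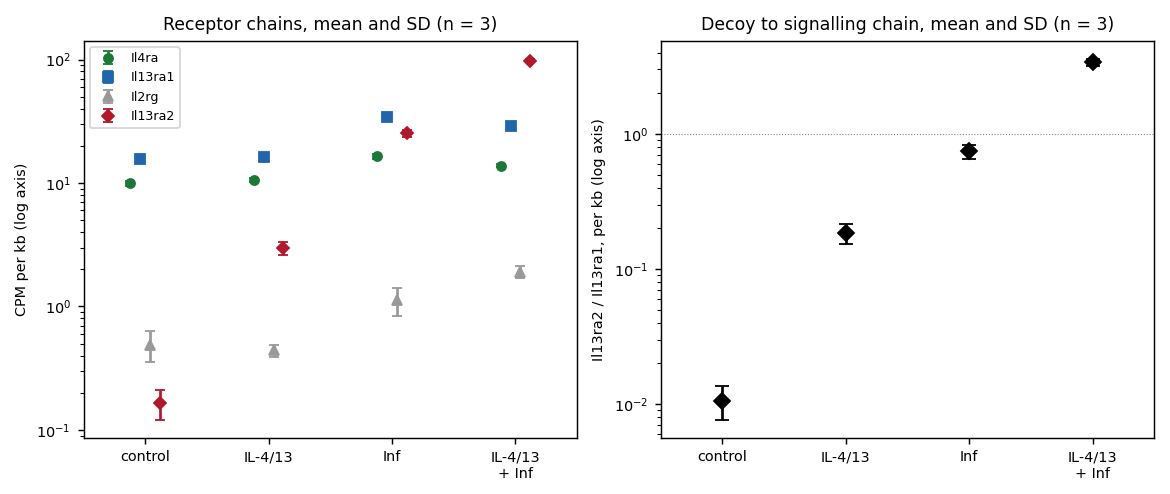
Left, level of the 4 receptor genes per kb of transcript (vertical log axis, CPM per kb) in the 4 conditions. Right, the ratio of Il13ra2 to Il13ra1 per kb (vertical log axis), with a dotted line at a ratio of 1. Points are means and bars SD of 3 libraries, and the ratio runs from 0.0106 in control to 3.38 with IL-4/13 + Inf.

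The kinases changed little. Jak1 (ENSMUSG00000028530, GRCm38 chr4:101152367-101265282, minus strand), the kinase bound to IL-4Rα, was at 284, 291 and 286 CPM in control, 287, 275 and 277 CPM with IL-4/13, 321, 321 and 310 CPM with Inf, and 303, 299 and 290 CPM with IL-4/13 + Inf. The Inf libraries were all above control, but by only 0.15 on the log2 scale (SE 0.040, adjusted p = 0.0038), which is under the fold threshold. With IL-4/13 the values were −0.04 (95% confidence interval −0.12 to 0.05) without Inf and −0.09 (−0.17 to −0.01, adjusted p = 0.096) with Inf. Tyk2 (ENSMUSG00000032175, GRCm38 chr9:21104068-21131243, minus strand), the kinase bound to IL-13Rα1, was at 38.0, 34.9 and 37.1 CPM in control, 35.95, 33.0 and 35.4 CPM with IL-4/13, 46.5, 45.2 and 40.7 CPM with Inf, and 43.7, 43.1 and 43.5 CPM with the combination. Libraries with and without Inf did not overlap for Tyk2, whereas IL-4/13 made no separation on either background.

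Inf upregulated Tyk2 by 0.27 on the log2 scale (SE 0.068, adjusted p = 0.0018). This call sat just above the fold threshold and was lost, at 0.24, with scaling by library size alone, at 0.24 without control replicate 2 and at 0.23 without Inf replicate 1. The ratio of Tyk2 to Jak1 per kb lay between 0.122 and 0.152 in all 12 libraries.

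Stat6 (ENSMUSG00000002147, GRCm38 chr10:127642986-127660957, plus strand), the transcription factor at the end of the pathway, was transcribed at nearly the same level in all conditions. It was at 91.8, 89.3 and 91.1 CPM in control, 91.9, 96.9 and 88.7 CPM with IL-4/13, 101, 105 and 109 CPM with Inf, and 107, 105 and 102 CPM with IL-4/13 + Inf. The 6 libraries with Inf were all above the 6 without it. The log2 fold change with Inf was 0.21 (SE 0.050, with an adjusted p of 0.00085), under the fold threshold, and the values with IL-4/13 were 0.03 (95% confidence interval −0.08 to 0.13) without Inf and −0.01 (−0.11 to 0.09) with Inf. The gene Nab2 lies on the opposite strand and overlaps the exons of Stat6 by 40 bases in GRCm38. Nab2 was at 143, 114, 96.7 and 75.6 CPM in control, IL-4/13, Inf and the combination. The part of Nab2 reads in the Stat6 values was not tested. The library kit keeps strand, but whether the counting used it is not given in the sources used here, and reads in the overlap cannot then be told apart. Annotated genes that overlap Il4ra, Jak1, Tyk2 or Cish on the opposite strand had at most 10 counts in a library. STAT6 is switched on by phosphorylation, which RNA levels do not show.

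The feedback inhibitors rose with IL-4/13 on both backgrounds. Socs1 (ENSMUSG00000038037, GRCm38 chr16:10782240-10785536, minus strand), an inhibitor of JAK kinases, was at 11.8, 14.1 and 14.7 CPM in control, 27.2, 28.3 and 30.7 CPM with IL-4/13, 20.3, 19.7 and 20.1 CPM with Inf, and 37.7, 36.9 and 37.1 CPM with the combination. None of the 4 conditions overlapped. IL-4/13 upregulated Socs1 by 1.09 on the log2 scale without Inf (SE 0.088, adjusted p = 1.5e-10) and 0.89 with Inf (SE 0.081, adjusted p = 8.9e-10). The difference between these responses was −0.19 (95% confidence interval −0.44 to 0.05, adjusted p = 0.52), so none was detected. On the CPM scale IL-4/13 added 15.2 CPM without Inf (SE 1.38) and 17.2 CPM with Inf (SE 0.317), and the ranges of differences between single libraries, 12.5 to 19.0 CPM and 16.5 to 18.0 CPM, overlapped. Inf alone upregulated Socs1 by 0.57 (SE 0.090, adjusted p = 5.7e-06).

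Cish (ENSMUSG00000032578, GRCm38 chr9:107296026-107302784, plus strand) had larger fold changes from a lower level. It was at 2.34, 1.80 and 3.78 CPM in control, 9.97, 12.8 and 12.9 CPM with IL-4/13, 6.85, 6.09 and 5.33 CPM with Inf, and 33.1, 32.3 and 32.8 CPM with IL-4/13 + Inf. Again none of the conditions overlapped, and the combination was above every other library. IL-4/13 upregulated Cish by 2.16 without Inf (SE 0.17, adjusted p = 4.8e-10) and by 2.43 with Inf (SE 0.13, adjusted p = 1.2e-13) on the log2 scale. The interaction was 0.27 (95% confidence interval −0.20 to 0.75, adjusted p = 0.68). In CPM, the addition was 9.25 without Inf (SE 1.13) and 26.6 with Inf (SE 0.489), and the ranges between single libraries, 6.19 to 11.1 CPM and 25.5 to 27.7 CPM, did not overlap. Inf alone raised Cish by 1.20 (SE 0.19, adjusted p = 7.6e-06), and the combination raised it by 3.63 (SE 0.15), 12.3-fold.

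The balance of the inhibitors also moved. The ratio of Cish to Socs1 per kb was 0.121 ± 0.040 in control, 0.256 ± 0.027 with IL-4/13, 0.188 ± 0.022 with Inf and 0.544 ± 0.0031 with IL-4/13 + Inf (SD, n = 3 each). The longest Cish transcript, of 4.70 kb, is longer than its principal transcript of 2.85 kb, and with the latter the mean ratios were 0.199, 0.421, 0.310 and 0.897, in the same order.

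**Figure D4:**
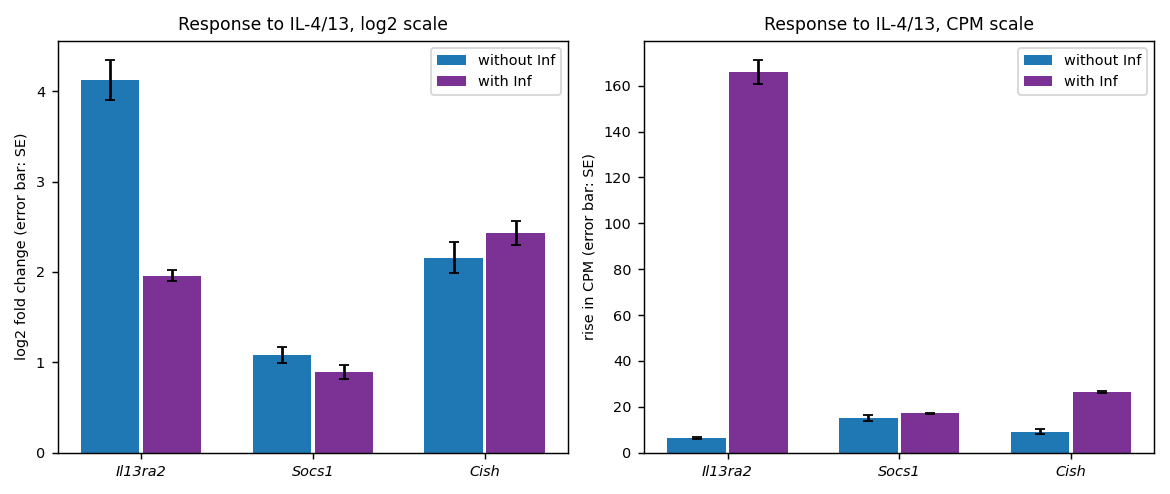
Response to IL-4/13 of Il13ra2, Socs1 and Cish without Inf (IL-4/13 against control) and with Inf (IL-4/13 + Inf against Inf). Left, log2 fold change, and right, rise in CPM, both with SE bars and axes from 0. Il13ra2 rises by 6.40 CPM without Inf and 166 CPM with Inf although its log2 fold change is the smaller with Inf, while the rises of Socs1 are 15.2 and 17.2 CPM.

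The start sites of the 3 genes that rose with IL-4/13 on both backgrounds were set beside these values, together with that of Il4ra, the only other one of the 9 that held a match to a motif searched. The windows span 250 bases before to 50 bases after the annotated RefSeq start (GRCm38.p6), are written 5′ to 3′ on the strand of the gene, and have motif matches in capitals.
Cish, chr9:107296409-107296708, plus strand: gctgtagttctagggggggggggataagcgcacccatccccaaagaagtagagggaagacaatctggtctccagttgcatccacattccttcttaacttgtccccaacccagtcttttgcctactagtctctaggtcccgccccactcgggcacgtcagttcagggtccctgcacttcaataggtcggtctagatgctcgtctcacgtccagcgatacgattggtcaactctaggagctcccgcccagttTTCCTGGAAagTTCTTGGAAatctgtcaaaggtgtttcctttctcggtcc
Socs1, chr16:10785487-10785786, minus strand: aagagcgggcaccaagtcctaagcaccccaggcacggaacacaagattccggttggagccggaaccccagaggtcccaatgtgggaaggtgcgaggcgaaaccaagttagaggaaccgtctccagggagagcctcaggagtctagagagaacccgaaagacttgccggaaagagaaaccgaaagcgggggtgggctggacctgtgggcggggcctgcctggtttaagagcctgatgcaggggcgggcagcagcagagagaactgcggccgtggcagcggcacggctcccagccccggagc
Il13ra2, chrX:147429143-147429442, minus strand: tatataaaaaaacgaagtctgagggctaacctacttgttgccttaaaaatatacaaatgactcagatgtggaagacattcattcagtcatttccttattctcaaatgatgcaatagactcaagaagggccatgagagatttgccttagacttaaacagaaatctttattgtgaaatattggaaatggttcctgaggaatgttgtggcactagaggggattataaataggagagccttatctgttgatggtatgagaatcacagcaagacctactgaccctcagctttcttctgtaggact
Il4ra, chr7:125552021-125552320, plus strand: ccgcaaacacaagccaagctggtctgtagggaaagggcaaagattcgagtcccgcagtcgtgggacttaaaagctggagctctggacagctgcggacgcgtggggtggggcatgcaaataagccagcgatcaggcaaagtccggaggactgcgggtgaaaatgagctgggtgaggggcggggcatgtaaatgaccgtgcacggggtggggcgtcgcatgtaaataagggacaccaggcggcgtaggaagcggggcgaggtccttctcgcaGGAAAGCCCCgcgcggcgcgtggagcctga

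The motifs searched were TTCNNNNGAA, the spacing that STAT6 is known to prefer, TTCNNNGAA, the spacing used by most other STATs, and the NF-kappaB consensus. The STAT motifs read the same on both strands, and the NF-kappaB consensus was searched in both orientations. Cish held 2 matches to TTCNNNGAA, TTCCTGGAA and TTCTTGGAA, which begin at bases 251 and 262 of the window. Of all 32851 promoter windows in the table, 8.298% held at least 1 match to TTCNNNGAA and 0.457% held 2 or more. None of the 9 genes held TTCNNNNGAA, which occurred in 6.953% of all windows, and Il4ra held 1 match to the NF-kappaB consensus, GGAAAGCCCC at base 271, a motif found in 4.505% of windows. A match describes letters in a short window and not binding, and the absence of one says nothing about sites elsewhere.

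IL-4/13 + Inf was also compared with each treatment alone. Against Inf, 4 of the 9 genes were upregulated (Il2rg, Il13ra2, Socs1 and Cish), where 7.55% of all tested genes were upregulated and 7.00% downregulated. By edgeR and by DESeq2 0 of the 9 were downregulated, although 3 were lower at an unadjusted p below 0.05 (Il4ra, Il13ra1 and Jak1), and DESeq2 called 3 upregulated. Against IL-4/13, 7 of the 9 were upregulated, the same 7 genes as with Inf alone, where 13.3% of tested genes were upregulated and 11.0% downregulated, and 0 were lower by either tool or at an unadjusted p below 0.05. The log2 fold changes against IL-4/13 were 5.06 for Il13ra2, 2.12 for Il2rg, 1.47 for Cish, 0.84 for Il13ra1, 0.39 for Il4ra, 0.38 for Socs1 and 0.32 for Tyk2. The median of the 9 genes was −0.01 against Inf and 0.39 against IL-4/13, beside −0.01 and 0.00 (−0.0021 before rounding) over all tested genes. The first of these comparisons shares the Inf libraries with Inf against control, and the second the IL-4/13 libraries with IL-4/13 against control.

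The interaction asked whether the response to IL-4/13 differed with Inf. It was negative and called for 3 of the 9 genes, Il13ra2, Il4ra and Il13ra1, where it was called negative for 1.59% and positive for 1.52% of tested genes. It was called positive for 0 of the 9 by edgeR or DESeq2 and for 0 at an unadjusted p below 0.05. The values were −0.33 for Il4ra (SE 0.082, adjusted p = 0.017) and −0.28 for Il13ra1 (SE 0.076, adjusted p = 0.031), beside the −2.17 of Il13ra2. For the type II chains these are differences of small responses, since Il4ra changed by 3.06 CPM with IL-4/13 without Inf and by −13.7 CPM with Inf, and Il13ra1 by 1.96 CPM and −18.8 CPM. Il4ra lost its call without control replicate 3 (adjusted p = 0.077), IL-4/13 replicate 3 (0.062), and IL-4/13 + Inf replicate 1 (0.064) or 2 (0.052). For Il13ra1 the call was lost in 7 of the 12 analyses that left out 1 library: control replicate 2 (adjusted p = 0.061) or 3 (0.092), IL-4/13 replicate 1 (0.13) or 2 (0.051), Inf replicate 2 (0.092), and IL-4/13 + Inf replicate 1 (0.077) or 3 (0.098). For Il2rg the interaction was 0.91 (95% confidence interval −0.02 to 1.83, adjusted p = 0.36), and for Jak1, Tyk2 and Stat6 it was −0.06, 0.05 and −0.04.

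Other genes of the pathway were taken from lists of names. Of 29 partners (ligands, kinases, SOCS proteins, phosphatases, adaptors and coactivators), 28 were tested. IL-4/13 upregulated 2 and downregulated 1 against control, Inf upregulated 6 and downregulated 4, and IL-4/13 on top of Inf upregulated 2 and downregulated 3. Over all tested genes the shares upregulated and downregulated were 2.78% and 2.57%, 16.3% and 15.3%, and 7.55% and 7.00% in the same order. The median log2 fold changes of the 28 were 0.03, 0.12 and 0.00 (−0.00022 before rounding) in these comparisons. The ligand genes were low, with Il13 at 0 counts in all libraries and Il4 at no more than 35 counts.

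Jak2, a kinase that can also serve the type II receptor, was at 44.3, 43.7, 156 and 178 CPM in control, IL-4/13, Inf and the combination, and rose with Inf by 1.82 on the log2 scale (SE 0.057, adjusted p = 7.0e-22). Jak3, the kinase of the common γ chain, was at 25.4, 26.0, 27.9 and 26.6 CPM and was called in no comparison. The SOCS genes did not move as one. Socs3, an inhibitor of gp130 signalling, was at 44.7, 53.2, 200 and 237 CPM and rose with Inf by 2.16 (SE 0.059), while Socs2, an inhibitor known from growth hormone signalling, was at 9.95, 6.47, 9.11 and 5.40 CPM and fell with IL-4/13 both without Inf (−0.62, SE 0.14, adjusted p = 0.0027) and with Inf (−0.75, SE 0.14, adjusted p = 0.00015). Irs1, an adaptor that IL-4Rα uses for the PI3K branch, was at 37.4, 55.2, 17.8 and 26.2 CPM. It rose with IL-4/13 on both backgrounds (0.56 and 0.55, SE 0.071 and 0.080) and fell with Inf (−1.06, SE 0.078). Irs2, of the same list, was at 58.6, 58.0, 42.8 and 37.3 CPM and also fell with Inf (−0.46, SE 0.079). It was not called for IL-4/13 without Inf (−0.02) or with Inf (−0.20). Chil1, a chitinase-like protein reported to bind IL-13Rα2, was at 0.201, 0.169, 30.3 and 15.9 CPM and was lower in the combination than with Inf (log2 fold change −0.93, SE 0.12, adjusted p = 5.8e-07).

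Of 6 other STAT genes, 5 were tested. Inf upregulated 4 and downregulated 0 (0 also by DESeq2 and at an unadjusted p below 0.05), beside 16.3% and 15.3% of all tested genes. The gene not called was Stat5b (0.02). Stat2, Stat3 and Stat5a rose with Inf, with log2 fold changes of 0.67 (SE 0.16), 0.52 (SE 0.049) and 1.24 (SE 0.092). These were levels of 85.6 CPM in control and 136 CPM with Inf for Stat2, 190 and 272 CPM for Stat3, and 13.5 and 31.9 CPM for Stat5a. None of the 5 tested was called for IL-4/13 alone. On top of Inf, IL-4/13 downregulated Stat3 (−0.26, SE 0.048, adjusted p = 0.00016), from 272 to 227 CPM.

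Of 18 receptor chains that share a subunit or a kinase with the pathway, 14 were tested. Inf upregulated 9 of the 14 (16.3% of all tested genes), with a median log2 fold change of 0.88, and downregulated 0 (0 also by DESeq2 and at an unadjusted p below 0.05). IL-4/13 alone upregulated 3 and downregulated 1, beside 2.78% and 2.57% of all tested genes, with a median of 0.13. Among them were Ifngr2, a chain of the IFN-γ receptor, at 50.3, 78.8, 133 and 214 CPM, and Il6st, which encodes gp130, at 431, 685, 821 and 1148 CPM. Both rose with IL-4/13 without Inf (0.65 and 0.67) and with Inf (0.69 and 0.48). The interaction was called negative for 3 of the 14 (1.59% of all tested genes), including Osmr (−0.46, SE 0.077) and Ifnar2 (−0.52, SE 0.099), the chains for oncostatin M and type I interferon, which rose with Inf and were downregulated when IL-4/13 was added to it (−0.30 and −0.44).

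Of 21 textbook targets of STAT6, many of them from macrophages, 10 passed the filter. IL-4/13 alone upregulated 2 of the 10 (2.78% of all tested genes), Ccl11 (eotaxin) and Bcl6 (a transcriptional repressor), and downregulated 0 by edgeR and DESeq2, with 1 lower at an unadjusted p below 0.05. Bcl6 was at 26.0, 36.7, 27.7 and 34.3 CPM and rose by 0.50 (SE 0.077) without Inf and 0.32 (SE 0.076) with Inf. On top of Inf, IL-4/13 upregulated 5 of the 10 and downregulated 1, beside 7.55% and 7.00% of all tested genes, with a median log2 fold change of 0.29 over the 10 (−0.05 for IL-4/13 alone). The downregulated gene was Postn (periostin, a matrix protein), which was at 428, 371, 133 and 85.8 CPM. Macrophage targets such as Arg1, Retnla and Chil3 had at most 2 counts in any library, and Mgl2 and Ccl24 had 0. Mrc1, another macrophage target, passed the filter, at 0.181, 0.477, 2.11 and 3.03 CPM in control, IL-4/13, Inf and the combination. It was upregulated against control by Inf (3.51) and by the combination (4.03). For IL-4/13 it was not called, either without Inf (1.39) or with Inf (0.52).

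**Figure D5:**
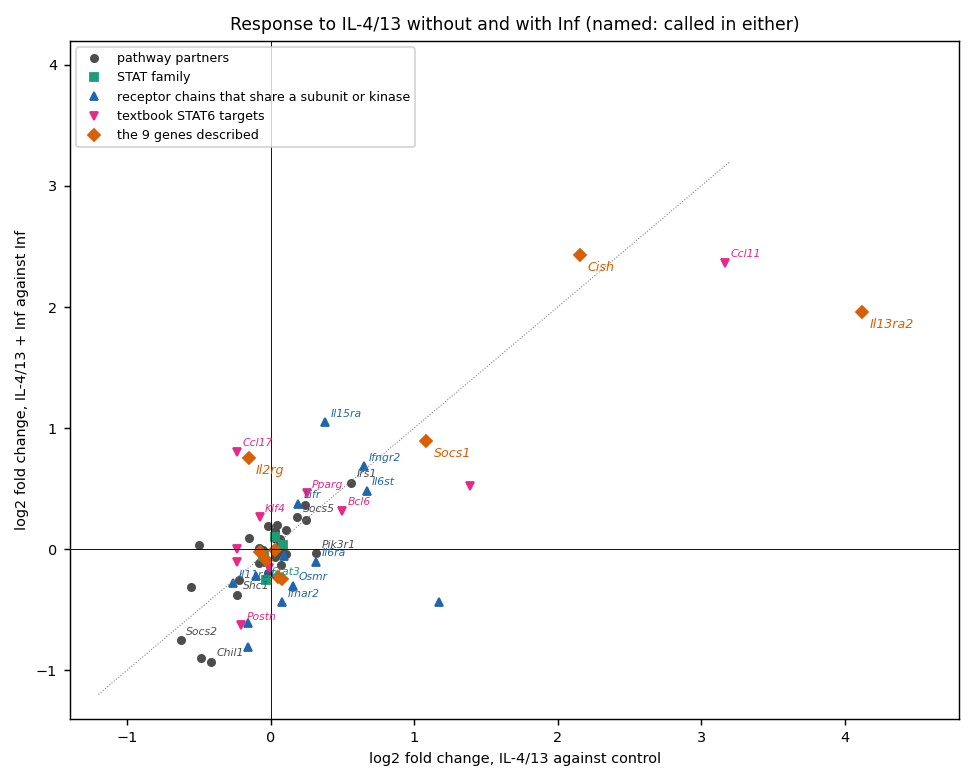
Response to IL-4/13 without Inf (horizontal axis, log2 fold change of IL-4/13 against control) and with Inf (vertical axis, IL-4/13 + Inf against Inf) for the 9 genes (diamonds) and the tested genes of 4 lists. The 2 axes share no libraries, the dotted line marks equal responses, and genes called in either comparison are named. Cish (2.16 and 2.43) and Socs1 (1.09 and 0.89) lie near the line and Il13ra2 (4.12 and 1.96) lies below it.

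For 5 of the 9 genes, the tested genes with the most similar profile over the 12 libraries were found by the root mean square difference of centred log2 CPM, among 11253 genes with at least 5 CPM in a condition. Socs1 was closest to Il1rl1, the IL-33 receptor chain (0.158), which was at 549, 1323, 882 and 1930 CPM in control, IL-4/13, Inf and the combination. Cish was closest to Rnf19b, an E3 ubiquitin ligase (0.339), at 82.1, 436, 152 and 756 CPM, and the chemokine gene Ccl11 was the third in that order (0.467). For Il4ra the closest was Nek6 (0.0519) and for Il13ra1 Gypc (0.0760), both highest with Inf alone like the receptor genes. The closest to Il13ra2 was complement C3 (0.572), at 6.09, 43.8, 741 and 1223 CPM, which has the same order of conditions but a narrower range.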

How the data were processed

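The authors sequenced polyadenylated RNA from 12 libraries and deposited raw counts, whole numbers of reads per gene, without normalization. The submitters' processing notes name STAR, featureCounts and GRCm39. Their versions, the annotation and the strand setting are not given in the sources used here, and coordinates and lengths are from GENCODE M21 (GRCm38). Total counts ranged from 13446005 to 20775769, and a gene with up to 3 counts was taken as at the limit of detection. The counts were filtered with filterByExpr by condition (minimum count 10, minimum total 15), scaled by TMM, and fitted in 1 robust quasi-likelihood model of all libraries in edgeR 4.0.16 (R 4.3.3, limma 3.58.1), which was tested on simulated data. SEs of log2 fold changes are the log2 fold change divided by the root of the F statistic. SEs of rises in CPM come from the variances of the 3 libraries of each condition compared, outside that model. Adjusted p-values are Benjamini-Hochberg values over all 14810 tested genes within each contrast. The study's methods name DESeq2 for these libraries, and DESeq2 1.42.0 was an alternative, with other scaling, filters and thresholds, a replicate block, only the libraries compared, and each library left out. Figures were drawn with matplotlib 3.10.9, and sequences came from RefSeq windows (GRCm38.p6), which held all 9 genes.

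The 9 genes, the lists and the markers were chosen with earlier results of these data known. The lists allowed up to 4 named genes each, called or at 0. Genes beyond that rule, among them Irs1, Irs2, Jak3, Il4, Stat5b, Mrc1, Arg1, Retnla and Chil3, were named after their values were seen. The same holds for those named in the plot of both responses. Libraries of 1 condition differed by more than sampling noise in every pair (chi-square of 2.27 to 8.58 per gene), so none was counted as a duplicate. Some genes of the lists are not reported here.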

Additional observations from a re-analysis of the deposited data

Results flagged for a closer look

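In the edgeR model, the interaction term was called for 3 of the 9 genes, beside 1.59% of all tested genes called negative and 1.52% called positive. The difference in log2 fold change, with Inf minus without Inf, was −2.17 for Il13ra2, −0.33 for Il4ra and −0.28 for Il13ra1. Over the 12 analyses without 1 library, Il13ra2 kept its call in 12, Il4ra in 8 and Il13ra1 in 5. On the CPM scale the sign for Il13ra2 was the opposite, with a rise of 166 CPM with Inf and 6.40 CPM without it, a difference that was not tested.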

How the results depend on the processing

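Among the fold changes of the 9 genes under the alternatives other than the fold thresholds, 968 kept their direction and side of the call, 20 lost the call and 17 gained it. Another 6, all uncalled, changed sign: Stat6 in 3, Tyk2, Il2rg and Cish in 1 each, and 0 called values did. The number of the 9 genes called moved by over 1.5 times only for the interaction with a library left out and for stricter fold thresholds. With a log2 threshold of 1, 4 genes were called for Inf against control, 2 for IL-4/13 + Inf against Inf, 3 for IL-4/13 + Inf against IL-4/13 and 1 for the interaction. With a threshold of 0.5, 4 were called for IL-4/13 + Inf against IL-4/13 and 1 for the interaction. The shares over all tested genes at these thresholds, and without 1 library, are not given here, so these counts describe the 9 genes alone. Over the 12 analyses without 1 library, the interaction was called for 1 to 3 genes, and Il13ra2 was the 1 gene left without control replicate 3 or IL-4/13 + Inf replicate 1. A stricter threshold lowers a count by construction, also over all tested genes. Leaving out a library can move a count in either direction, and the cause was not tested.

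Libraries with the same replicate number did not vary together (correlations of −0.146 to 0.0543 over 18 pairs, 0 above 0.1). With the replicate block, 3, 7, 6, 4, 7 and 3 of the 9 genes were called in the 6 contrasts, as without it. Over all tested genes the calls moved from 792 to 717 for IL-4/13 against control and from 461 to 410 for the interaction.

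With exon unions in place of the longest transcript, the control levels per kb were 8.73 for Il4ra, 0.344 for Il2rg, 39.7 for Jak1, 5.34 for Tyk2 and 20.6 for Stat6, and with the principal transcript, an alternative chosen after seeing the data, that of Cish was 0.927. Depth limits Il2rg, with 10 to 73 counts per library, and the control level of Il13ra2, with 5 to 8.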
